A study of Mus musculus and Homo sapiens with 10 samples.

Results

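The loci of 3 housekeeping genes, ACTB, GAPDH and EEF1A1, were examined in human K562 cells and, as Actb, Gapdh and Eef1a1, in mouse embryonic stem cells (mESC). The members are the enriched regions, called islands, that overlapped fixed windows around these genes by at least 1 bp. The hg19 windows were chr7:5555000-5585000 for ACTB, chr12:6635000-6660000 for GAPDH and chr6:74215000-74245000 for EEF1A1. The mm9 windows were chr5:143650000-143685000 for Actb, chr6:125100000-125130000 for Gapdh and chr9:78310000-78345000 for Eef1a1. The windows held 70 of the 632878 islands in 6 deposited lists, 39 in K562 and 31 in mESC.

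The lists came from chromatin cut with micrococcal nuclease and immunoprecipitated without any treatment of the cells. The mouse cells were undifferentiated 46c cells, a single embryonic stem cell line with a Sox1-GFP reporter, grown without feeder cells and with LIF at passages 25 to 28. K562, an established erythroleukaemia line that carries the BCR-ABL1 fusion, was at passage 14. In mESC there were 2 libraries each of H3K122ac, H3K64ac and H3K27ac, which the authors merged into 1 list per mark. In K562 there was 1 library each of H3K122ac, H3K27ac and H3K4me1, plus 1 of input chromatin for which no list was analysed here.

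ACTB encodes beta-actin of the cytoskeleton, GAPDH an enzyme of glycolysis, and EEF1A1 the elongation factor that brings aminoacyl-tRNA to the ribosome. All are transcribed at high levels in most dividing cells. H3K27ac, on the tail of histone H3, is common at active promoters and enhancers. H3K64 and H3K122 lie in the globular domain of the histone, on the lateral surface of the nucleosome close to the wrapped DNA. H3K4me1 is typical of enhancers and of the flanks of active promoters, whose central nucleosomes usually carry H3K4me3 instead.

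The RefSeq promoters of the mouse genes are shown because the islands described here lie at these loci. The table of promoters, on build GRCm38, matched 2 of the 3 mouse genes, Gapdh and Eef1a1, both on the minus strand. The 250 bases before each annotated start are given 5′ to 3′, with matches to GGGCGG on either strand in capitals.
Gapdh: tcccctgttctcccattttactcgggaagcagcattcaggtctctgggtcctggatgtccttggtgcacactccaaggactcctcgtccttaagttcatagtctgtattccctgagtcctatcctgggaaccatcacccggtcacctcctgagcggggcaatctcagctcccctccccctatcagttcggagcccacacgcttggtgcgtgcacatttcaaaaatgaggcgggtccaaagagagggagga
Eef1a1: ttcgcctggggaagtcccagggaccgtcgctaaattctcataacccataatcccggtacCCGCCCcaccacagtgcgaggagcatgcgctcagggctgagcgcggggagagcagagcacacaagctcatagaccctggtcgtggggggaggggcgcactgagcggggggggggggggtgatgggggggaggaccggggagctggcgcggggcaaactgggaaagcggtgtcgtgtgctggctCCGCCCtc

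The Eef1a1 window was 68% G or C with 18 CpG dinucleotides, above 87.7% and 78.2% of all 32536 mouse windows of this length. The Gapdh window was 55.6% G or C with 8 CpG, near the medians of 52.4% and 6. GGGCGG, the core of the GC box, matched 2 times in Eef1a1, at 191 to 186 and 8 to 3 bases before the start, and in 33.0% of all windows. The TATA-box spellings TATAAA, present in 12.3% of all windows on either strand, and TATATAA, present in 3.02%, matched in neither of these windows. The same held for CCAAT, present in 33.8%, and the Gapdh window had no match to GGGCGG. Bases after the annotated starts were not searched. These sequences were not placed on mm9, so their distance from an island is not given.

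The lists held 57512 to 173981 islands each, with 18283729 to 44320255 immunoprecipitated reads inside them. For each island the authors deposited the reads of the immunoprecipitated library, the reads of a background library, and a fold. The fold is the ratio of these counts divided by 1 library ratio per list. Folds of different lists are not on 1 scale, so each was ranked within its own list, as the percent of that list's islands with a lower fold. With 1 list per mark and cell line there were no replicate values and no test between marks or lines. Intervals of folds are exact 95% binomial intervals and cover counting error only, as reads without molecular identifiers are not independent molecules. The limits given with a difference of percentiles are not a 95% interval of that difference. They were found by ranking the ends of both fold intervals within their lists and subtracting opposite ends. No annotation of mm9 or hg19 was used here, so islands are given by position and not by exon or intron.

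The labelled cell types were checked at marker loci. Pou5f1 and Nanog, which maintain pluripotency, had islands in each mESC list. Their highest H3K122ac folds were 4.62 and 5.99, above 76.9% and 86.7% of the list. Their highest H3K27ac folds were 1.71 and 2.03, above 68.6% and 83.2%. GATA1, an erythroid transcription factor, and HBG1, a fetal globin, had islands in each K562 list. Their highest H3K122ac folds were 8.85 and 8.01, above 72.7% and 68.5% of the list. Their highest H3K27ac folds were 5.25 and 7.51, above 92.8% and 97.9%. The NANOG window in K562 had 0 islands in each list, whereas the Gata1 window in mESC had 2 H3K122ac islands and 0 of the other marks. The highest Gata1 fold was 6.80, above 90.3% of the list. By H3K122ac Gata1 thus ranked above Pou5f1 and Nanog in mESC, so this mark did not separate the markers there.

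In K562 each housekeeping locus had 1 large H3K122ac island that ranked above 89.9% or more of its list. Over GAPDH the island chr12:6640401-6645800 held 1250 reads over 185 background reads, a fold of 26.2 (22.4 to 30.7), above 98.4% of the 72662 islands. Over EEF1A1 the island chr6:74228401-74236200 held 1367 reads over 242, a fold of 21.9 (19.1 to 25.2), above 96.7%. Over ACTB the island chr7:5568201-5574000 held 864 reads over 221, a fold of 15.1 (13.0 to 17.6), above 89.9%. The ACTB interval lay below those of the other loci, while the intervals of GAPDH and EEF1A1 overlapped. All 3 folds were above the list median of 5.34.

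The smaller K562 H3K122ac islands were weaker. ACTB had 2 more, chr7:5578001-5580000 with 68 reads over 69 (fold 3.82) and chr7:5582401-5583600 with 43 over 69 (fold 2.41), both below the list median. A further island, chr7:5585001-5590800 with a fold of 6.58, began 1 bp past the window and was not counted. GAPDH had chr12:6647801-6652200 with 332 reads over 209 (fold 6.15) and chr12:6653601-6657600 with 370 over 131 (fold 10.9). EEF1A1 had chr6:74238401-74239000 with 103 reads over 59 (fold 6.76). The largest island thus held 88.6%, 64% and 93.0% of the H3K122ac reads of the ACTB, GAPDH and EEF1A1 windows.

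**Figure D1:**
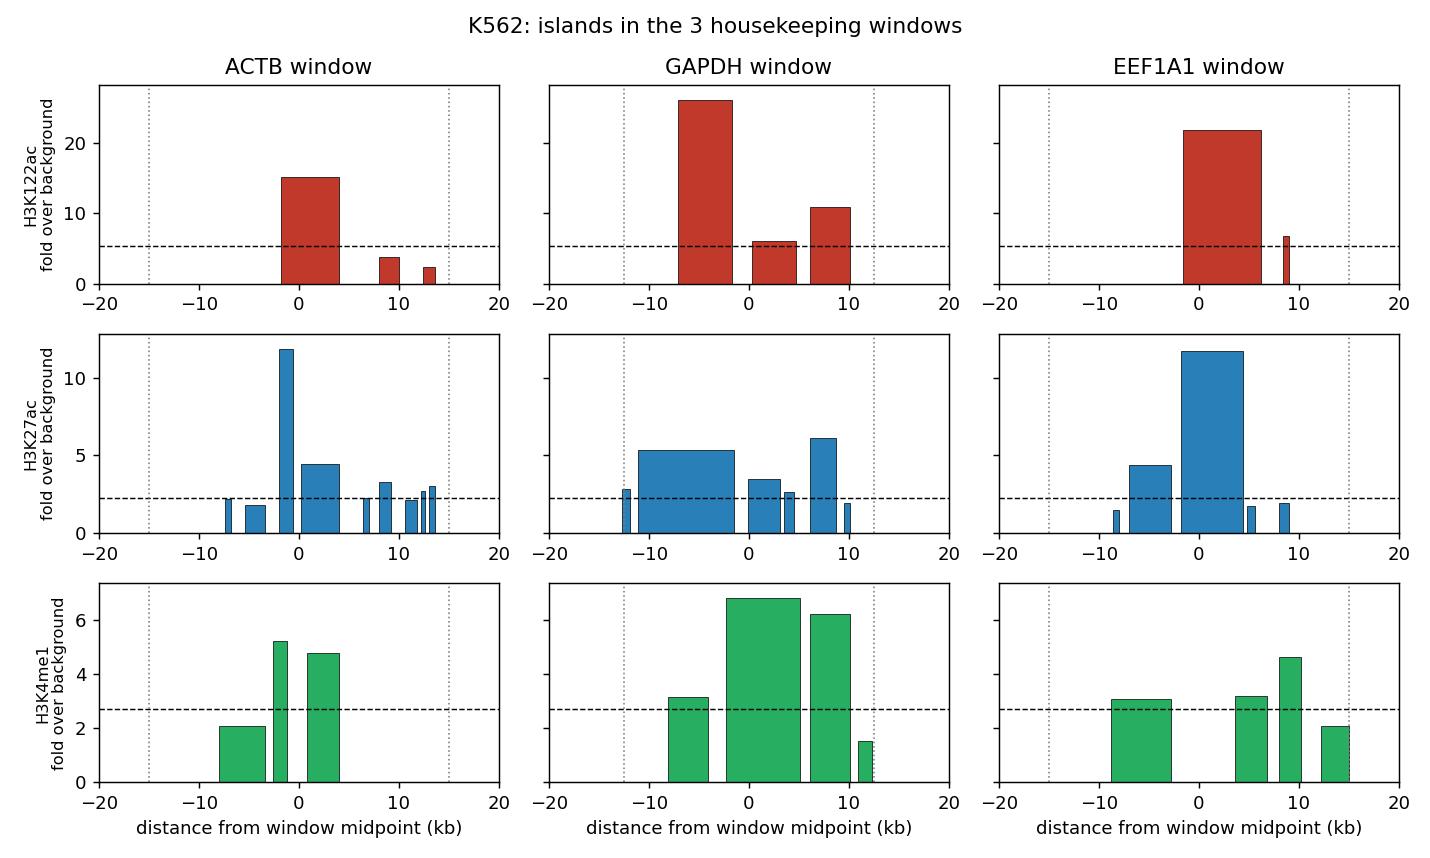
Islands of H3K122ac, H3K27ac and H3K4me1 in the 3 K562 windows. The x axis is the distance from the window midpoint in kb, the y axis the authors' fold over background, each bar is 1 island drawn to its length, dashed lines are list medians and dotted lines the window ends. One H3K122ac island per locus reaches a fold of 15.1 to 26.2, and a gap between H3K4me1 islands falls under each.

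H3K27ac in K562 had 9 islands at ACTB, 6 at GAPDH and 5 at EEF1A1. These numbers cannot be set against the other marks, since H3K27ac was called with a gap of 200 bp and the others with 600 bp. EEF1A1 had the highest fold among the islands with the most reads: chr6:74228201-74234400 held 1476 reads over 183, a fold of 11.7 (10.1 to 13.8), above 99.8% of the 173981 islands. At GAPDH the island chr12:6636401-6646000, 9600 bp long, held 1377 reads over 374, a fold of 5.36 (4.77 to 6.02), above 93.2%. At ACTB the island chr7:5570201-5574000 held 608 reads over 200, a fold of 4.42 (3.76 to 5.21), above 88.6%. The EEF1A1 interval lay above the intervals of both other loci, which overlapped.

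The highest H3K27ac fold of the ACTB window belonged to a shorter island, chr7:5568001-5569400, with 171 reads over 21 background reads, a fold of 11.8 (7.51 to 19.6), above 99.8% of the list. Its background was 15 reads per kb, higher than in only 0.386% of the islands of the list, against 52.6 reads per kb in the neighbouring island of 608 reads. Ranked instead by excess reads per kb, which subtracts background rather than dividing by it, the short island stood above 90.4% and its neighbour above 92.7%. The part of the low background count in the fold of 11.8 was not tested.

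The remaining H3K27ac islands in K562 had folds of 1.48 to 6.13. The highest was chr12:6653601-6656200 in the GAPDH window, with 278 reads over 66 and a fold of 6.13 (4.67 to 8.14), at a background of 25.4 reads per kb. It starts at the same base as the GAPDH island of H3K122ac with a fold of 10.9. EEF1A1 had a second long island, chr6:74223001-74227200, with 491 reads over 164 and a fold of 4.35. At ACTB the 7 other islands had folds of 1.78 to 3.29.

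H3K4me1 in K562 overlapped the strong H3K122ac islands over part of their length. GAPDH had the highest fold, with chr12:6645201-6652600 at 1049 reads over 266, a fold of 6.79 (5.93 to 7.80), above 98.1% of the 113669 islands. ACTB had chr7:5570801-5574000 at 516 reads over 187, a fold of 4.75 (4.01 to 5.65), above 87.1%. EEF1A1 had chr6:74221201-74227200 at 443 reads over 248, a fold of 3.08 (2.63 to 3.61), above 59.5%. The 3 intervals did not overlap for these islands. With all islands of a window summed, the intervals of ACTB, 3.47 (3.09 to 3.91), and EEF1A1, 3.22 (2.91 to 3.57), overlapped. By excess reads per kb ACTB at 219 was above GAPDH at 208. In the islands of most reads EEF1A1 was thus lowest by H3K4me1 and highest by H3K27ac. A smaller EEF1A1 island, chr6:74238001-74240200, held 313 reads over 117 and reached a fold of 4.61 (3.71 to 5.75), an interval that overlaps that of ACTB.

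At every K562 locus a stretch without H3K4me1 lay inside or across the strong H3K122ac island. At ACTB it ran over chr7:5568801-5570800, 2000 bp that were all within the H3K122ac island and 60% covered by H3K27ac. At GAPDH it ran over chr12:6643401-6645200, 1800 bp that both acetylations covered whole. At EEF1A1 it ran over chr6:74227201-74233600, 6400 bp of which H3K122ac covered 81.2% and H3K27ac 84.4%.

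H3K4me1 accordingly covered 65.5% of the ACTB, 66.7% of the GAPDH and 33.3% of the EEF1A1 island of H3K122ac. Among the 13122 K562 H3K122ac islands of at least 4000 bp the median coverage was 91.7%, and 16.7%, 17.9% and 3.37% were covered to no greater extent than these 3. An uncovered stretch as long as that inside the EEF1A1 island, 5200 bp, was found in 0.716% of the 13122 islands. Islands shorter than 5200 bp, also among the 13122, cannot hold such a stretch, so this share depends on length as well. For ACTB and GAPDH these shares were 13.4% and 16.1%. H3K27ac covered 86.2%, 100% and 87.2% of the same 3 islands, against a median of 85.3%.

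One pair of islands in the K562 windows had identical ends in separate lists, which allows a comparison of reads over the same bases. Over chr12:6653601-6657600, in the GAPDH window, H3K122ac held 370 reads and H3K4me1 473 reads, each over the same 131 background reads. The folds were 10.9 and 6.22, above 80.5% of the H3K122ac and 96.5% of the H3K4me1 islands. H3K4me1 thus ranked higher there, whereas at the EEF1A1 island of H3K122ac most of the sequence had no H3K4me1 island.

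The strong islands of the 3 marks were next put on the scale of the background library that the lists of a line share. Excess reads are the immunoprecipitated reads divided by the library ratio, minus background, per kb of island. At GAPDH they were 862 for H3K122ac, 170 for H3K27ac and 208 for H3K4me1. At EEF1A1 they were 648, 317 and 85.8, and at ACTB 539, 180 and 219. The list medians were 216, 68.1 and 85.5, so the EEF1A1 islands of most reads stood above the median for both acetylations and close to it for H3K4me1. That H3K4me1 island does not overlap the acetylated ones, and another in the window, chr6:74238001-74240200, had 192 excess reads per kb, above 92.9% of its list. Levels of different antibodies on this scale are not amounts of modification.

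In mESC the H3K122ac islands of most reads were 14600 to 17600 bp long and stood above 51.2% to 72.6% of their list. The H3K122ac island with the most reads at Eef1a1, chr9:78324201-78341800, spanned 17600 bp and held 2806 reads over 731, a fold of 4.20 (3.87 to 4.57), above 72.6% of the 92957 islands. At Gapdh the island chr6:125108601-125124400 held 3598 reads over 1366, a fold of 2.88 (2.71 to 3.07), above 51.2%. At Actb the island with the most reads, chr5:143680001-143694600, extended 9600 bp past the window and held 3264 reads over 924, a fold of 3.87 (3.60 to 4.17), above 68.4%. The Gapdh interval lay below those of Actb and Eef1a1, which overlapped. Organism, depth, merging and antibody performance differ between the lines, so these ranks were not compared with K562 by a test.

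Because 34.2% of that Actb island lay inside the window, the other Actb islands are given as well. The island chr5:143666801-143675400, around the window midpoint, held 2360 reads over 629, a fold of 4.11 (3.76 to 4.49), above 71.4% of the list. The short island chr5:143655801-143658200 held 932 reads over 170 and had the highest H3K122ac fold of the mouse windows, 6.0 (5.09 to 7.11). The remaining one, chr5:143676601-143678800, had a fold of 3.47. All 4 Actb folds were above the list median of 2.83, whereas the 2 smaller Gapdh islands, with folds of 1.60 and 1.64, were below it.

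**Figure D2:**
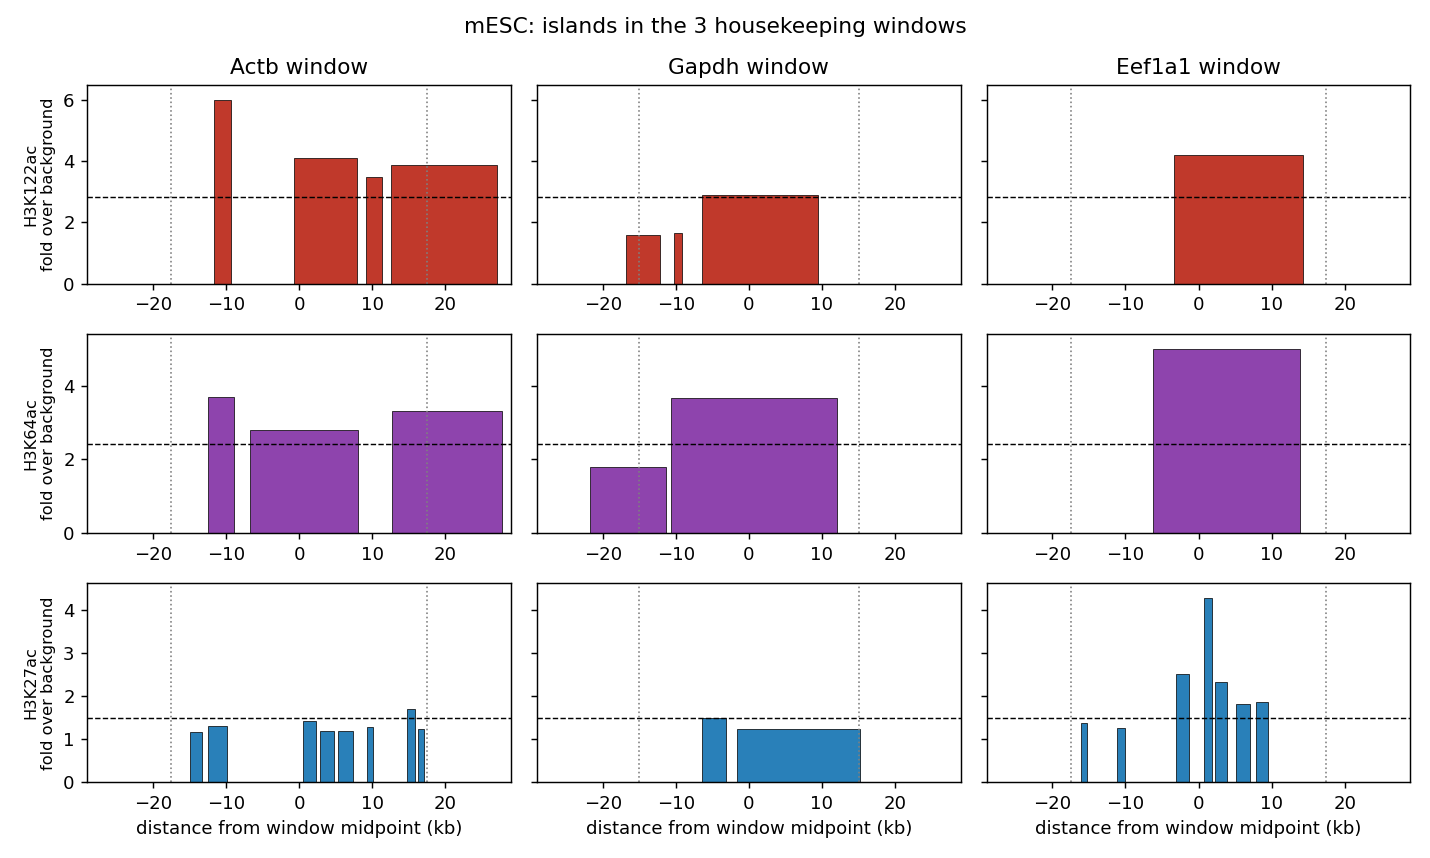
Islands of H3K122ac, H3K64ac and H3K27ac in the 3 mESC windows, with axes and lines as in the K562 map. Single long islands of H3K122ac and H3K64ac span the Eef1a1 window's centre at folds of 4.20 and 4.99, where H3K27ac forms a series of short islands with folds of up to 4.28.

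By fold, H3K64ac in mESC ranked highest at Eef1a1. There the island chr9:78321201-78341400, 20200 bp long, held 4669 reads over 864, a fold of 4.99 (4.64 to 5.38), above 86.8% of the 57512 islands. At Gapdh the island chr6:125104401-125127000 held 7412 reads over 1870, a fold of 3.66 (3.48 to 3.86), above 74.5%. At Actb the island chr5:143680201-143695200 held 3427 reads over 957, a fold of 3.31 (3.08 to 3.56), above 69.3%, and the island at the window midpoint, chr5:143660801-143675600, 3125 over 1033, a fold of 2.80 (2.60 to 3.0). The Eef1a1 interval was above the others, while those of Gapdh and Actb touched between 3.48 and 3.56. By excess reads per kb, defined above, the order turned, with 220 at Gapdh, above 94.0% of the list, 171 at Eef1a1, above 86.5%, and 147 at Actb. The percentile of H3K122ac minus that of H3K64ac was -23.3 points at Gapdh (-29.6 to -16.9) and -14.2 at Eef1a1 (-20.5 to -7.89), so H3K64ac ranked higher there. At Actb it was -0.931 (-8.82 to 6.87) for the islands of most reads and 12.0 (3.02 to 20.8) for those at the midpoint.

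H3K64ac covered most of the large H3K122ac islands. It ran past both ends at Gapdh and at the Actb midpoint island, and past the lower end only at Eef1a1. It covered 100% of the Actb midpoint island and of the Gapdh island of H3K122ac, and 97.7% of the Eef1a1 island. The median over the 15687 mESC H3K122ac islands of at least 4000 bp was 92.6%. The H3K64ac islands were longer, at 22600 against 15800 bp at Gapdh and 14800 against 8600 bp at the Actb midpoint. Over the whole lists H3K64ac islands were also longer, with medians of 2600 against 1800 bp. The smaller Actb island of H3K122ac, chr5:143676601-143678800, met no H3K64ac island. H3K27ac covered 65.1% at the Actb midpoint island, 89.9% at Gapdh and 46.6% at Eef1a1, where the last 4800 bp had none. The median for H3K27ac was 52.4%.

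H3K27ac in mESC set Eef1a1 apart from the other loci. The island of most reads at Eef1a1, chr9:78329801-78331400, held 480 reads over 94, a fold of 2.34 (1.87 to 2.95), above 89.7% of the 122097 islands. A neighbour, chr9:78328201-78329400, held 346 over 37, a fold of 4.28 (3.04 to 6.18), above 98.5%, at a low background of 30.8 reads per kb. The 5 other islands of that window had folds of 1.26 to 2.51.

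At Actb and Gapdh, H3K27ac islands were called but had low folds. The Actb island of most reads, chr5:143655001-143657600, held 542 reads over 189, a fold of 1.31 (1.11 to 1.56), above 23.9% of the list. The island nearest the midpoint, chr5:143668001-143669800, which starts 501 bp past it, had 510 reads over 165 and a fold of 1.41. The highest fold of the window was 1.71, at chr5:143682201-143683400. The Gapdh island chr6:125113401-125130200, 16800 bp long, held 4080 reads over 1513, a fold of 1.23 (1.16 to 1.31), above 10.7%. The other Gapdh island, chr6:125108601-125111800, had 1042 reads over 317 and a fold of 1.5, close to the list median of 1.49. The Actb and Gapdh intervals overlapped and did not reach that of Eef1a1.

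Background reads moved with part of these differences. In the mESC H3K27ac islands of most reads, background was 72.7 reads per kb at Actb, 90.1 at Gapdh and 58.8 at Eef1a1, against a list median of 60. In the H3K122ac islands of most reads it was 63.3, 86.5 and 41.5 against a median of 61.9. For these marks Gapdh, with the highest background, had the lowest fold, and Eef1a1, with the lowest background, the highest. For H3K64ac, background was 63.8 at Actb, 82.7 at Gapdh and 42.8 at Eef1a1, and the fold of Gapdh, 3.66, was above that of Actb, 3.31. By excess reads per kb Actb stood at 182 for H3K122ac, Gapdh at 163 and Eef1a1 at 133, so Eef1a1, highest by fold, was the lowest on that scale. For H3K27ac Eef1a1 remained the highest on that scale, at 78.5 against 22.7 for Actb and 21.1 for Gapdh. The part of background in the mouse folds was not tested beyond these values.

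**Figure D3:**
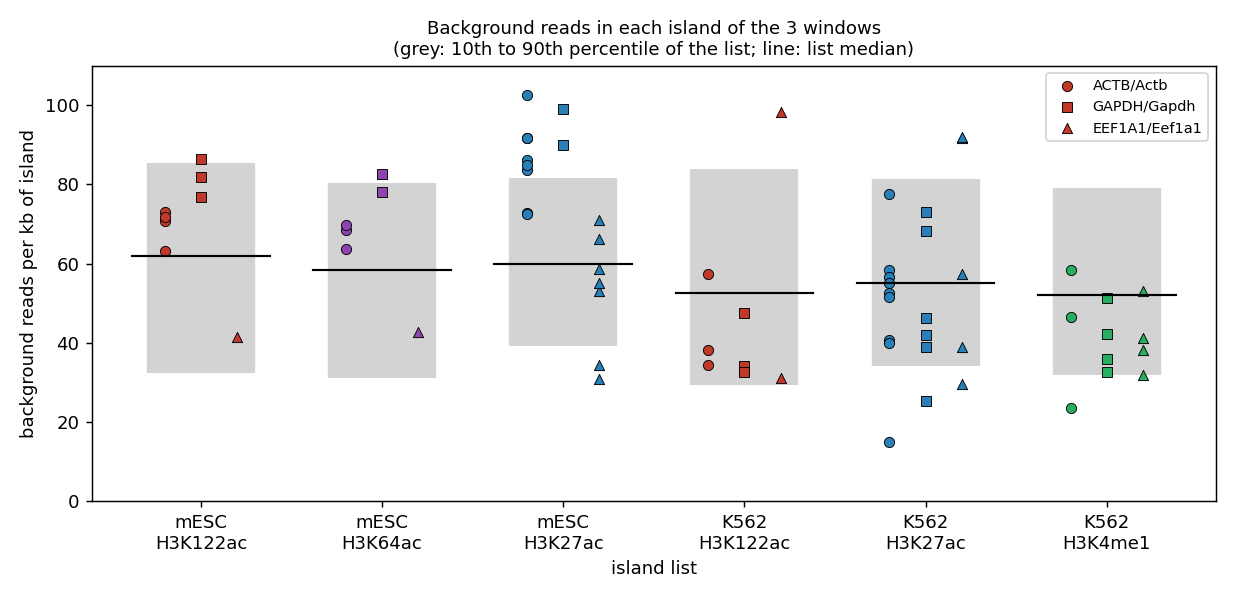
Background reads per kb of island (y axis) for each of the 70 islands, by list (x axis) and locus (symbol), with the 10th to 90th percentile of each list in grey and its median as a line. Eef1a1 lies below the median in the mESC lists of H3K122ac and H3K64ac while Gapdh lies above it, and the single lowest point is the K562 ACTB H3K27ac island at 15 reads per kb.

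Counts at a fold of at least 3 were read against all islands of each list. In K562 the island of most reads passed this fold at 3 of 3 loci for H3K122ac, where 77.6% of all islands pass it, for H3K27ac, where 27.9% do, and for H3K4me1, where 42.4% do. In mESC it passed at 2 of 3 loci for H3K122ac, the exception being Gapdh, against 46.3% of all islands, and at 3 of 3 for H3K64ac against 36.2%. The Actb H3K64ac island counted lay 32% inside the window. With islands at least 50% inside the window, the H3K64ac count was 2. For mESC H3K27ac the island of most reads passed at 0 of 3 loci, against 4.44%. Over all islands in the windows the counts were 7 of 8, 8 of 20 and 8 of 11 in K562, and 5 of 8, 4 of 6 and 1 of 17 in mESC, in the same order of marks. The median percentile over these islands was 70.8, 66.3 and 61.8 in K562, and 65.4, 71.9 and 35.1 in mESC, where 50 is the middle of a list. With 3 loci per list, these shares are given as values and were not tested. The island of most reads was picked by its reads, whereas the shares cover islands of all read counts, so the 2 are not alike.

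**Figure D4:**
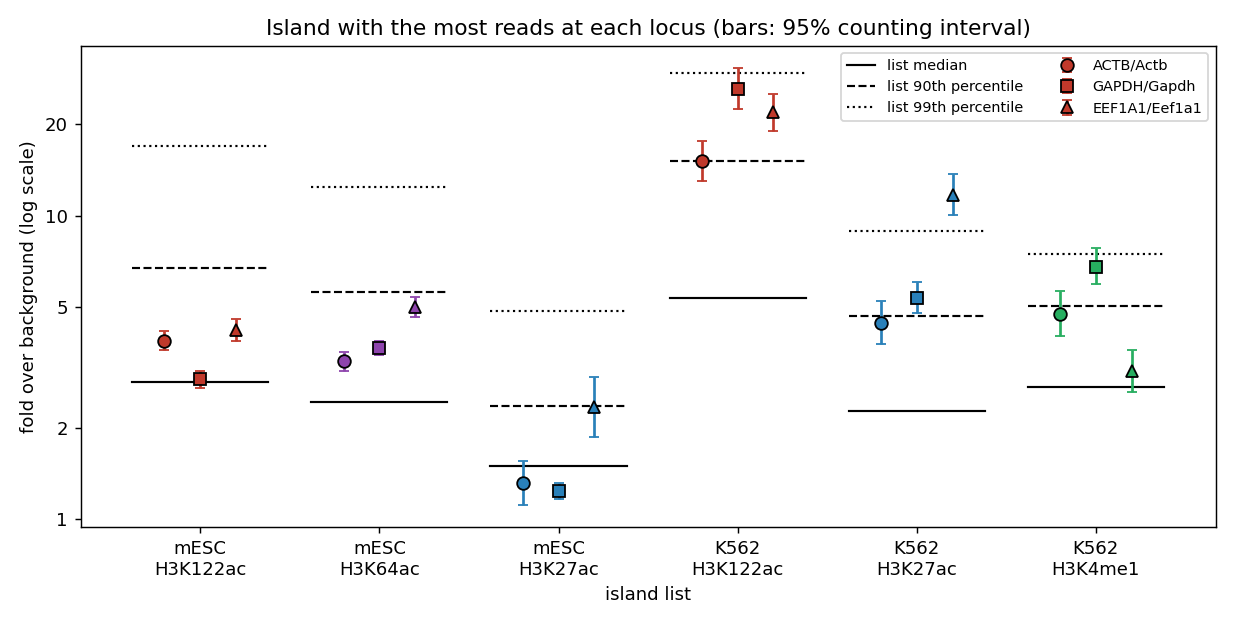
Authors' fold over background (y axis, log scale) of the island with the most reads at each locus, by list (x axis). Bars are 95% counting intervals and lines mark the median, 90th and 99th percentiles of each list; K562 EEF1A1 H3K27ac is the one point above a 99th percentile, and mESC Actb and Gapdh lie below the H3K27ac median.

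H3K122ac and H3K27ac were last compared at each locus by the difference of their within-list percentiles. In mESC, H3K122ac ranked higher by 44.5 points at Actb (7.50 to 71.7) and by 40.5 points at Gapdh (23.8 to 52.3). The Actb islands compared lie at opposite ends of the window and do not overlap. With the islands of highest fold the Actb difference was 18.3 (-4.56 to 56.5). With summed islands the Gapdh difference was 25.5 (9.74 to 39.6). At Eef1a1 H3K122ac ranked lower, with a difference of -17.1 points (-26.8 to -1.0), which was -7.78 (-27.1 to 23.2) among islands with a q-value of at most 1e-10. In K562 the differences were smaller, 5.21 points at GAPDH (1.64 to 8.47), 1.31 at ACTB (-6.58 to 9.97) and -3.05 at EEF1A1 (-5.20 to -1.31). By the islands of most reads in all, H3K27ac ranked above H3K122ac at the elongation factor gene in each line. With all islands of the window summed, the K562 EEF1A1 difference was -0.551, with limits of -4.364 to 3.135 that include both signs. The signs at K562 ACTB and GAPDH and at mESC Gapdh depended on which islands were taken or how they were ranked. With all islands of a window summed, the GAPDH difference was -0.288 and that of ACTB -0.13, and with the island of highest fold the ACTB difference was -9.81 and that of Gapdh -0.187. Ranked by excess reads per kb, the ACTB difference was -4.61.

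Neighbouring genes and copies of the members limit what an island can be assigned to. In the mouse gene table of GRCm38, Gapdh lies between Iffo1 and Ncapd2, Actb between Fbxl18 and Fscn1, and the nearest coding genes of Eef1a1 are Mto1 and Slc17a5. The long mouse islands may therefore include sequence of a neighbour. The table also names 1 pseudogene of Actb, 3 of Gapdh and 2 of Eef1a1, and the sources used here do not say how reads matching several copies were treated.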

How the data were processed

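Native chromatin immunoprecipitation was sequenced from 6 mESC and 4 K562 libraries, grouped by their titles. The submitters' processing notes name SICER 1.1, Bowtie 0.12.8 and HOMER 4.3, without roles, and mm9 and hg19 as builds. Per the labels of the lists, windows were 200 bp, the false discovery rate 0.01, and gaps 200 bp for H3K27ac and 600 bp otherwise. The deposited read counts of each island, immunoprecipitated and background, are not normalized. The deposited fold is their ratio over 1 library ratio per list, recomputed as 0.913, 1.08 and 2.19 for mESC H3K122ac, H3K64ac and H3K27ac, and 0.258, 0.688 and 0.581 for K562 H3K122ac, H3K27ac and H3K4me1. The authors' p-value and q-value columns were used only to filter. Where both ends of an island matched between lists of a line, its background counts were equal, in 5372 of 5372 cases for mESC H3K122ac and H3K64ac, so the background was shared. The sources used here do not say which library it was.

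Ends were converted to 1-based coordinates. In each window the island with the most reads was compared, and all islands were described. Marker windows were set by hand from known gene positions, not checked against an annotation. Percentiles, exact binomial intervals and coverage were computed with Python 3.11.15, pandas 2.3.3 and scipy 1.17.1 and tested on simulated data. The members, windows and lists of genes were chosen with earlier results of these data known. Alternatives were the island of highest fold, summed islands, a q-value of at most 1e-10, at least 10 background reads, excess reads per kb, a fold of at least 2 and H3K27ac islands joined across 600 bp.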

Additional observations from a re-analysis of the deposited data

How the results depend on the processing

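With 1 list per mark and line, no replicate could be left out. No paired analysis was possible because the authors merged the mouse replicates before islands were called. Of the values recomputed for the counts at a fold of 3 and the differences between H3K122ac and H3K27ac, 63 were called unchanged. A further 6 moved and 5 changed sign, and the causes were not tested. Unchanged differences stayed within their limits, whereas counts have no limits and small changes were passed. Some of the unchanged values could not have changed. The K562 islands of most reads lay wholly inside their windows, so requiring 50% inside left them the same. The K562 counts, already at all loci, could not change at a lower fold. The mESC H3K122ac count of 2 became 3 at a fold of at least 2. The mESC H3K64ac count of 3 became 2 with islands at least 50% inside the window. Both were called unchanged. The mESC H3K27ac count of 0 became 1 when islands were chosen by highest fold and 1 at a fold of at least 2. With islands of highest fold the H3K122ac minus H3K27ac difference became -9.81 points at K562 ACTB and -0.187 at mESC Gapdh. With summed islands it became -0.13 at ACTB, -0.288 at K562 GAPDH and -0.551 at K562 EEF1A1. Ranked by excess reads per kb it became -4.61 at ACTB, -6.76 at EEF1A1 and -33.5 at mESC Eef1a1, and with a q-value of at most 1e-10 it became 10.1 at GAPDH. Of the other differences, H3K122ac minus H3K4me1 became -1.38 (highest fold) and -8.17 (excess reads) at ACTB, from 2.82, and -1.52 (summed) at GAPDH, from 0.346. H3K122ac minus H3K64ac at Actb, -0.931, became 12.0 with the highest fold, 5.56 with summed islands and 12.0 with islands at least 50% inside the window, an alternative chosen after seeing the data. At Eef1a1 it moved from -14.2 to -24.3 by excess reads, and H3K122ac minus H3K4me1 at EEF1A1 from 37.2 to 11.1 with the highest fold and to 51.3 with a q-value of at most 1e-10. Counts in single islands limit precision: the ACTB H3K27ac island of 21 background reads has a fold interval of 7.51 to 19.6.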

Other observations

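Some of the islands nearest to the windows on the outside reached folds as high as those at the housekeeping genes, and others did not. Upstream in coordinate order of the K562 ACTB window, 400 bp away, H3K122ac formed the island chr7:5552201-5554600 with 475 reads over 110, a fold of 16.7 (13.6 to 20.8), an interval that overlaps that of ACTB itself at 15.1. H3K27ac and H3K4me1 formed islands at nearly the same place, with folds of 4.76 and 4.26. In mESC all 3 marks formed an island that starts at the same base, chr6:125140801, which is 10801 bp past the Gapdh window. Its folds were 8.06 for H3K122ac, 5.65 for H3K64ac and 1.61 for H3K27ac, against 2.88, 3.66 and 1.5 at the highest Gapdh islands inside the window. The counting intervals did not overlap for H3K122ac and H3K64ac, and overlapped for H3K27ac.

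Past the mESC Eef1a1 window, H3K122ac formed chr9:78346201-78354800 with 3011 reads over 551, a fold of 5.99 (5.46 to 6.57), above the interval of the Eef1a1 island, 3.87 to 4.57. H3K64ac there had a fold of 5.37, in an interval of 4.95 to 5.84 that overlaps that of Eef1a1. H3K27ac formed a weaker island, chr9:78346201-78347400, with a fold of 1.41 against 4.28 at its highest inside the window. Before the Eef1a1 window, H3K122ac formed chr9:78303801-78306000 with 956 reads over 155, a fold of 6.76 (5.70 to 8.06). This was also above the interval of the Eef1a1 island, 3.87 to 4.57. The other nearest islands had lower folds than the highest inside, some with overlapping intervals. At K562 EEF1A1 the H3K27ac folds outside were 1.80 and 2.12, against 11.7 inside. The H3K122ac folds outside were 19.7 (16.5 to 23.5) and 9.16 (7.86 to 10.7) there. The first overlaps the interval inside, 19.1 to 25.2. At K562 GAPDH the H3K122ac folds were 18.8 (15.1 to 23.6) and 17.3 (13.5 to 22.5) against 26.2 (22.4 to 30.7). Both outside islands, 30600 and 16401 bp from the window, have intervals that overlap the one inside. The GAPDH H3K4me1 folds were 1.34 and 2.87 against 6.79 inside. At mESC Actb the H3K122ac folds were 2.41 and 2.85, against up to 6.0. The islands described in detail were chosen after their values were seen, among the nearest ones outside the windows.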
